A study of Drosophila melanogaster with 2 samples.

Results

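The core genes of Wingless signalling were examined for binding of kay, the only fly Fos protein and a subunit of the AP-1 transcription factor. The 10 genes were taken from a fixed list by name: wg, fz, fz2, arr, dsh, Axn, sgg, arm, pan and nkd, out of 13945 protein-coding genes on 6 chromosome arms in the Ensembl annotation. A region belonged to a gene when its summit, the position of its highest signal, lay in the gene or up to 3 kb beyond either end. By this rule the 10 genes held 223 of the 30000 candidate regions of the pooled data. The authors' stricter list holds 3860 regions and was set by a test of reproducibility between replicates, the irreproducible discovery rate (hence IDR regions). Of these the 10 genes held 16. The IDR regions are the strongest 3860 pooled candidates by signal, and 3854 of them overlap a candidate in both replicates. Being in the list therefore does not show that a region was strong in each replicate.

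The data come from chromatin immunoprecipitation and sequencing (ChIP-seq) in *Drosophila melanogaster* embryos of pooled sexes, aged 0 to 24 hours. The flies were a transgenic line in which kay carries GFP at its C-terminus, and the tagged protein was precipitated with an antibody to GFP. There was 1 group of 2 biological replicates, numbered 2 and 4, and no other genotype, treatment or time, so no condition could be compared with another. Whole embryos of all these stages were pooled, so a region cannot be assigned to a cell type, and all embryos came from 1 tagged line. The signal of a region is the value that the authors' peak caller gave it, and the lists hold no read counts, so the depth of the libraries is unknown.

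Wingless is the founding fly Wnt ligand. It binds receptors of the Frizzled family (fz, fz2) together with the co-receptor arrow (arr), and the signal passes through dishevelled (dsh). Without it, a complex built on Axin (Axn) with the kinase shaggy (sgg, the fly glycogen synthase kinase) marks armadillo (arm, the fly beta-catenin) for destruction. Stabilised armadillo enters the nucleus and joins pangolin (pan, the fly TCF protein) on target genes, among them naked cuticle (nkd), an inhibitor that acts back on dishevelled. In the embryo the pathway sets the polarity of segments and the pattern of the epidermis. Fos and Jun dimers recognise the AP-1 site TGACTCA, which reads TGAGTCA on the opposite strand.

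IDR regions lay at 6 of the 10 genes: nkd had 5, sgg 4, fz 3, arr 2, fz2 1 and pan 1. The ligand gene wg, dsh, Axn and arm had none. Across all protein-coding genes, 37.5% had at least 1 IDR summit by the same rule. Long genes have more room for regions, and the share was 52.8% of genes of at least 10 kb and 34.9% of shorter ones. Of the 10 genes, 7 were at least 10 kb long, and 6 of these had an IDR region, with Axn the exception. The 3 shorter genes, wg, dsh and arm, had none. With 10 genes these counts are a description, and they were not tested against the shares over all genes.

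The sequences under the summits are shown first for the strongest IDR region of 4 genes, as 100 bases of the dm6 plus strand around the summit. The regions of arr and pan are not printed, and that of pan lies at the promoter of a neighbouring gene. Capitals mark a match to any of the 7 motifs searched, and in 3 of the 4 windows there is none.
sgg promoter, chrX:2646411-2646510: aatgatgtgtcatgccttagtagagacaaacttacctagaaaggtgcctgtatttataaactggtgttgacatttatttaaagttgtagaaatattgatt
fz intron, chr3L:14304025-14304124: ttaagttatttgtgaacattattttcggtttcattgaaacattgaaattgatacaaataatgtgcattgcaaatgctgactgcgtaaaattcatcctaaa
nkd promoter, chr3L:19045572-19045671: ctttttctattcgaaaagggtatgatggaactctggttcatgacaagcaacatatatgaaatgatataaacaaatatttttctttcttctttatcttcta
fz2 intron, chr3L:19162977-19163076: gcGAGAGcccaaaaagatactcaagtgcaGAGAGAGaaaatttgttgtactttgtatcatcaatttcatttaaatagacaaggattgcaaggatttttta
The GAGAG repeats in the fz2 window were the only matches in these 4 windows. The share of G and C was 28.0% for fz and nkd, 31.0% for sgg and 33.0% for fz2, and 41.0% in the same window of the pan region, which held no motif either. The median over the same windows of all IDR regions was 35.0%.

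None of the 16 IDR regions at the Wingless genes contained an AP-1 site, neither the 4 at promoters nor the 10 in introns, where 9.8% and 14.8% of all IDR regions of that location had one. Among all IDR regions 11.7% contained one at their full width, and the exact binomial (Clopper-Pearson) 95% interval for 0 of 16 runs from 0 to 20.6%, so that the share over all regions lies inside it. The AP-1 sites at these genes lay in 8 weaker candidates outside the IDR list, 3.59% of 223 (interval 1.56 to 6.95%), against 7.82% of all candidates. They are shown because they are every AP-1 site in a candidate region of the 10 genes, with the site in capitals and 12 bases of the plus strand on either side.
fz, chr3L:14310175-14310205: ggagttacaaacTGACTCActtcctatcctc
fz, chr3L:14329217-14329247: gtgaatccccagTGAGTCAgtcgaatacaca
fz2, chr3L:19182680-19182710: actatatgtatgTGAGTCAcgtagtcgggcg
nkd, chr3L:19014281-19014311: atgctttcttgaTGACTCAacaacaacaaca
nkd, chr3L:19044116-19044146: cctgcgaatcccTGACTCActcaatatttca
sgg, chrX:2653489-2653519: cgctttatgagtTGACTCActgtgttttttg
arm, chrX:1901643-1901673: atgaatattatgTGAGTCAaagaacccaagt
pan, chr4:106746-106776: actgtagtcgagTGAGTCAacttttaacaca
The strongest of these candidates, in an sgg intron, ranked 7079 of 30000 and had its site 177 bp from the summit. The site closest to a summit, at 10 bp, was in fz, in a candidate that ranked 17336. That candidate lay at the promoter of CG13482, 104 bp from that gene's transcription start site and 54899 bp from that of fz. The nkd sites were in candidates at ranks 9264 and 13119, and the other 4 in candidates between ranks 13386 and 29083. The last of these, counted for arm, lay in the neighbouring gene Ldaf1, 31 bp from its start site and 1234 bp from the nearest of arm.

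Allowing any base in the middle (TGANTCA) added 1 IDR region, in an nkd intron, with the match 38 bp from the summit. Across all IDR regions 20.4% held this relaxed form, which includes the AP-1 site itself. The TCF core CTTTGAT, the sequence that pan and other TCF proteins bind, occurred in 1 of the 16 regions, the sgg promoter region, 85 bp from its summit (6.84% of all IDR regions). The DREF element TATCGATA was in none of the 16 IDR regions (6.99% of all IDR regions) and in 2 of the 223 candidates (0.897%, against 3.79% of all candidates). The match in the dsh promoter candidate lay 127 bp from its summit. The other, 6 bp from the summit, was in a candidate counted for arm at the promoter of the neighbouring gene mRpL16 (rank 12299). The nkd, sgg and dsh matches are printed with the matching bases in capitals, the TCF core as its reverse complement.
nkd intron, chr3L:19033346-19033376: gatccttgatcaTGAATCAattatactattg
sgg promoter, chrX:2646361-2646391: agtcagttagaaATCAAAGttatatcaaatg
dsh promoter, chrX:11355646-11355677: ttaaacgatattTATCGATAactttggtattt
The short GAGA repeat GAGAG, bound by chromatin factors such as Trl, was in 12 of the 16 regions (75.0%, interval 47.6 to 92.7%), against 47.0% of all IDR regions and 52.9% of IDR regions around genes of at least 10 kb. By location these were 8 of the 10 regions in introns (53.4% over all intronic IDR regions), 3 of the 4 at promoters (42.9% over all promoter ones) and 1 of the 2 between genes. With 1 region per cluster, a count chosen after seeing the data, it was in 10 of 14 (71.4%, interval 41.9 to 91.6%), against 46.5% of all clusters, so that the interval then includes the share over all. IDR regions are from 114 to 952 bp wide, and shares over whole regions are not matched for length. Among regions of the commonest width of 456 bp, a comparison also added after seeing the data, GAGAG was in 10 of 13 (76.9%, interval 46.2 to 95%), against 49.6% of all IDR regions of that width, which lies inside the interval. These 13 are among the 16 regions without an AP-1 site, so none of them had one (interval up to 24.7%, against 11.7%). Within 50 bp of the summit, only 1 of the 16 regions, that of fz2, had the repeat, against 12.9% of all IDR regions. The cAMP response element TGACGTCA was in none of the 16 (1.58% of all), and the TCF helper core GCCGCC was in 4 (25%, interval 7.27 to 52.4%, against 15.4%).

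**Figure D1:**
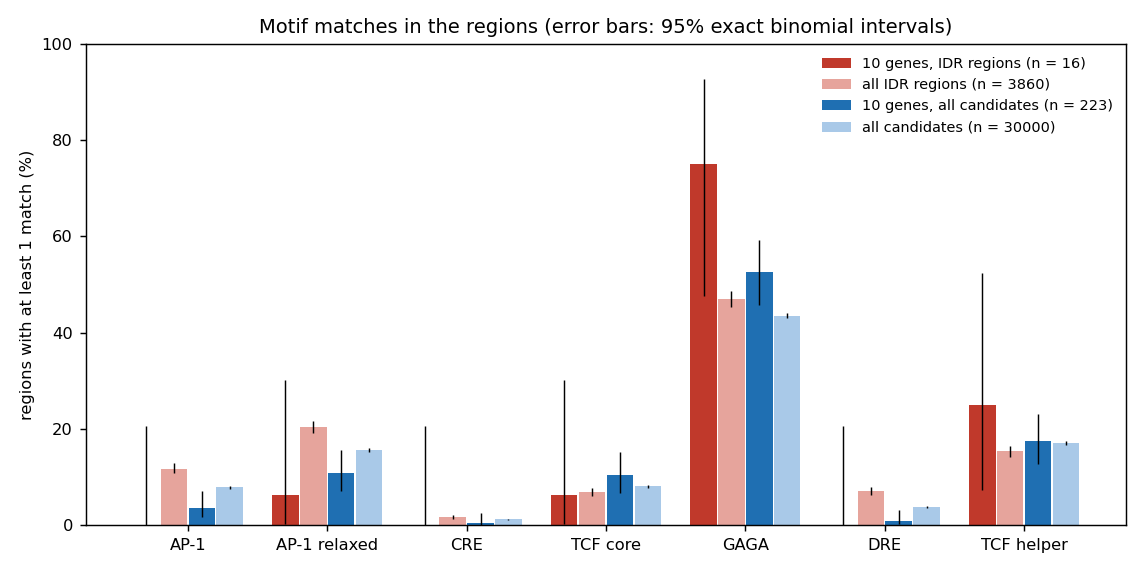
Share of regions with at least 1 match to each motif on either strand, in percent, for IDR regions and all candidates of the 10 genes and of the whole lists; error bars are exact binomial 95% intervals. The AP-1 bar of the 16 IDR regions is at 0 with an interval up to 20.6%, and the GAGA bar is at 75.0%.

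The 16 IDR regions lay mainly in introns. A summit within 500 bp of a transcription start site (TSS) was called a promoter, and 4 of the 16 were at one (25%, interval 7.27 to 52.4%), while 10 were in introns farther away (62.5%) and 2 between genes. None was in an exon away from promoters. Over all IDR regions 54.7% were at promoters and 31.4% in introns. Over the IDR regions around genes of at least 10 kb, 44.0% were at promoters, and their share in introns was not counted. Some of the 16 regions overlap, which such an interval ignores. With 1 region per cluster of overlapping regions the count was 4 of 14 (28.6%, interval 8.39 to 58.1%), against 54.1% of all clusters, a share that lies inside the interval. Of the 4 promoter regions, 3 were at a TSS of the gene itself (2 at sgg, 1 at nkd) and 1, counted for pan, was at the promoter of the neighbouring gene RpS3A. An IDR summit at a promoter of its own was therefore found at 2 of the 10 genes, against 18.8% of all protein-coding genes. The annotation gives the 10 genes 29 separate TSSs, 22 of which had a candidate and 3 an IDR region within 500 bp, against 17.2% of all TSSs with an IDR region.

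Candidates were dense at these genes but few of them were strong. The windows of the 10 genes hold 50.2 candidates per 100 kb, against 25.8 in the windows of all protein-coding genes together. Around genes of at least 10 kb the candidates numbered 24.1 per 100 kb. IDR regions numbered 3.6 per 100 kb at the 10 genes, 3.44 in all gene windows and 2.79 around the long genes. Thus 7.17% of the candidates at the 10 genes were IDR regions, against 12.9% of all candidates and 11.6% of those around genes of at least 10 kb. In introns the figure was 6.45% of 155 candidates, against 9.65% over all intronic candidates, and at promoters 11.1% of 36, against 23.0%. Promoter candidates made up 16.1% of the candidates at the 10 genes and 30.7% of all candidates. The 16 regions spanned ranks 255 to 3581, with a median rank of 2033.5, and 7 were among the strongest 1930. Their median signal was 137.5, and that of all IDR regions was 141.3. The other 207 candidates had signals from 23.6 to 91.6. The IDR list ends at a signal of 93.6, so any candidate outside it is weaker by the way the list was made. Of these 207, 124 overlapped a candidate in both replicates, 75 in 1 replicate and 8 in neither.

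**Figure D2:**
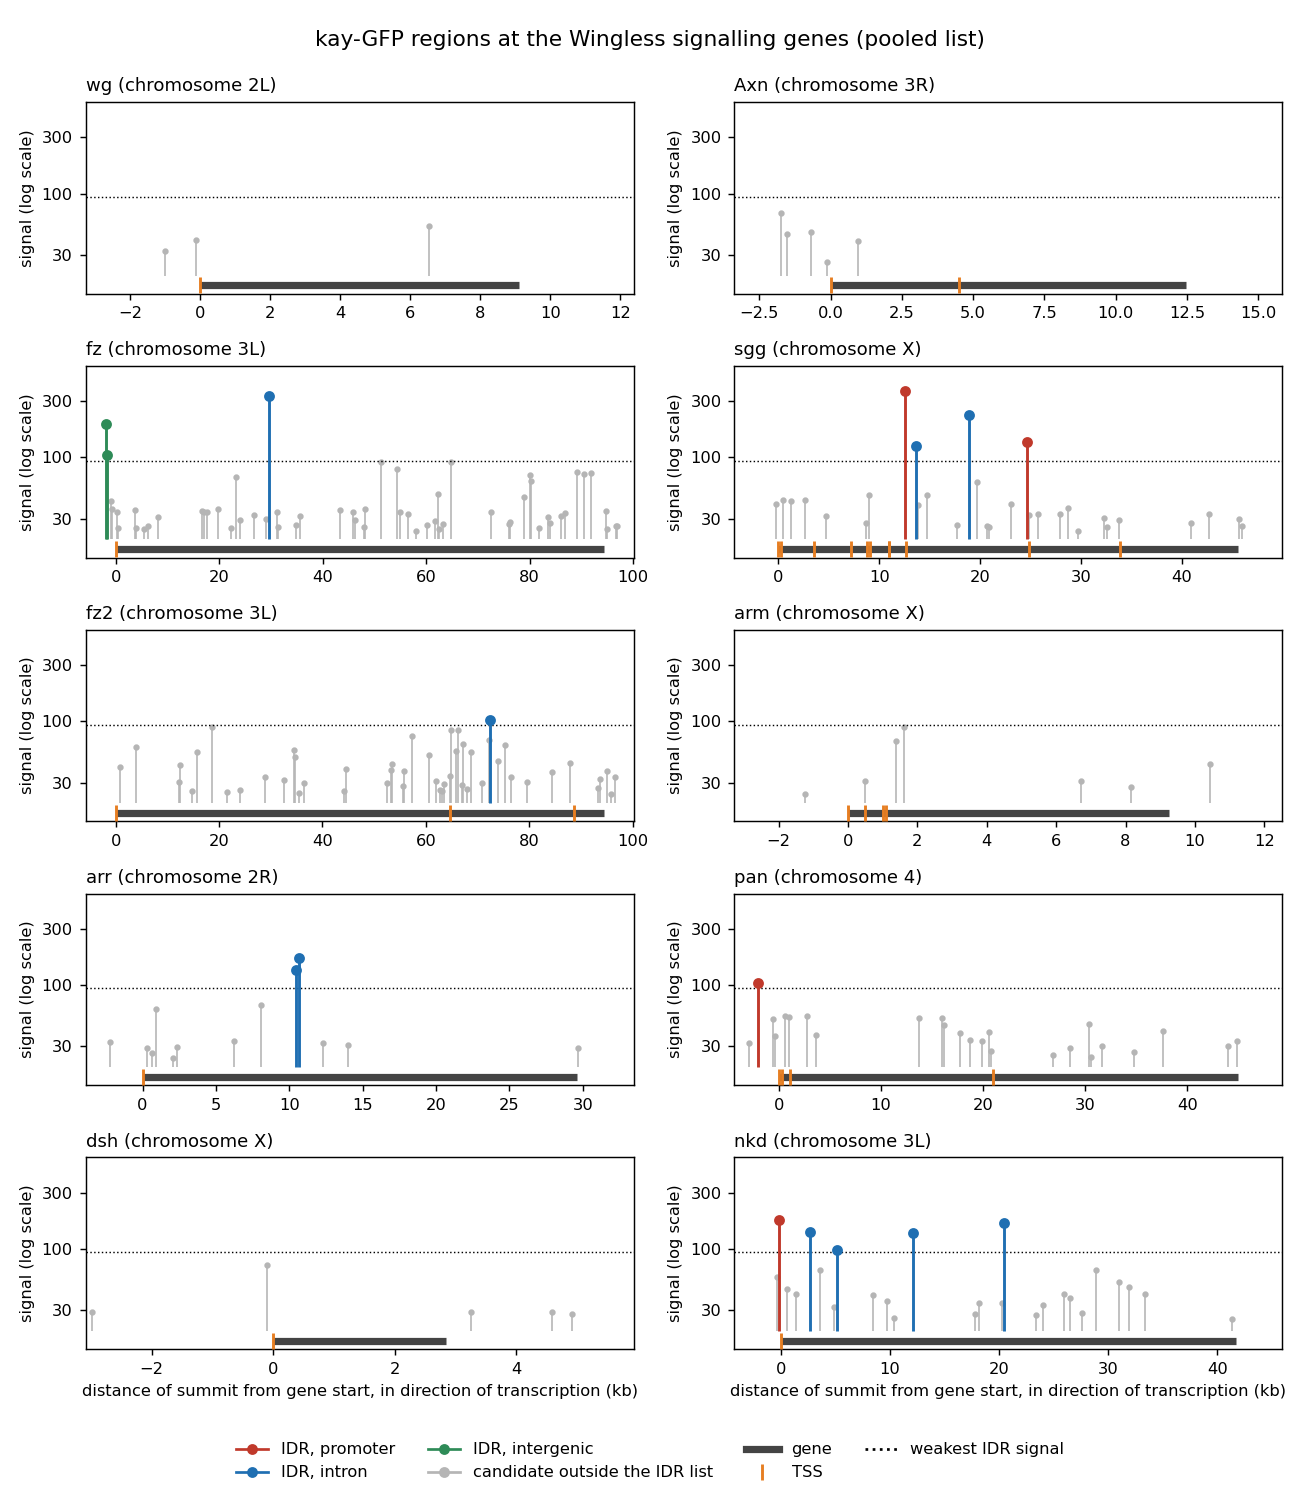
Signal of every candidate region (log scale) against the distance of its summit from the gene start in kb, in the direction of transcription, for the 10 genes in the pooled list; coloured points are IDR regions by location, grey points other candidates, and the dotted line is the weakest IDR signal, 93.6. The IDR regions of sgg lie between 12.5 and 24.7 kb from the gene start, those of nkd from the promoter to 20.5 kb inside, and wg, dsh, Axn and arm have only grey points.

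At the top of the pathway, wg (chr2L:7307159-7316265) had 3 candidates in a window of 15.1 kb, all weak. The strongest was in its intron 6.5 kb from the TSS, with a signal of 52.4 and rank 9160, and its counterparts were at rank 15782 in replicate 2 and 17574 in replicate 4. The candidate at the wg promoter, 123 bp from the TSS, ranked 13615 (signal 40.2) and had no counterpart in replicate 2, whereas it ranked 14162 in replicate 4. The third candidate, 1.0 kb upstream, ranked 18976 and had a counterpart in replicate 2 alone. The ligand gene thus had no region near the strength of the IDR list in either library.

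The receptor gene fz (chr3L:14274343-14368639) held 59 candidates, more than any other of the 10 genes, and 3 IDR regions. The strongest lay in an intron 29.7 kb inside the gene (chr3L:14303962-14304170), with a signal of 330.0 and pooled rank 335. It ranked 308 in replicate 2, with a signal there of 200.2, and 396 in replicate 4, with a signal of 129.2. Signals of different lists are not on a stated common scale, so the ranks are what can be set side by side, and here they differ little. The other fz regions overlap each other upstream of the gene, with summits 1820 and 1610 bp before its only annotated TSS. They have signals of 191.4 and 103.9 and ranks 1073 and 3295, and both have the same strongest counterpart, at rank 994 in replicate 2 and 1027 in replicate 4. At the fz TSS itself the best candidate ranked 17504 (signal 34.2). Introns of fz held 48 of its candidates. The strongest outside the IDR list were at ranks 3993 and 4035, just beyond its end at 3860.

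The second receptor gene, fz2 (chr3L:19140975-19235373), is of about the same length as fz, at 94.4 kb against 94.3 kb. It held 50 candidates but only 1 IDR region, which lay in an intron 7621 bp from the nearest TSS (chr3L:19162799-19163254). Its signal was 101.7 and its rank 3415, near the end of the IDR list, with counterparts at rank 3611 in replicate 2 and 3705 in replicate 4. The counterpart in replicate 2 overlaps the region, but no summit in that replicate lay within 100 bp of the region's summit. The gene has 3 annotated TSSs, and of these only the one 64.7 kb from the gene start had a candidate within 500 bp. It had rank 4622 and a signal of 83.5. That candidate ranked 4682 in replicate 2 and 4283 in replicate 4, so the libraries place it alike and outside the IDR list.

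The co-receptor gene arr (chr2R:13453640-13483229) had 2 IDR regions among 13 candidates. They overlap each other in an intron about 10.7 and 10.5 kb from the only arr TSS (chr2R:13472317-13472772 and chr2R:13472525-13472980), and the nearest TSS is that of CG43192, a gene that lies within arr, 4797 and 4589 bp away. Their signals are 170.3 and 134.6 and their ranks 1341 and 2119. Both share 1 counterpart at rank 1367 in replicate 2 and rank 1498 in replicate 4. At the arr promoter the best candidate ranked 22005 and had no counterpart in replicate 4.

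In the cytoplasm, dsh (chrX:11355881-11358724) had 5 candidates and no IDR region. Its promoter candidate, 93 bp from the TSS, ranked 5655 with a signal of 72.4, and ranked 9199 in replicate 2 and 5797 in replicate 4. The other 4 dsh candidates had signals of 29.0 or less. The scaffold gene Axn (chr3R:30022842-30035311) also had 5 candidates. Its strongest, with rank 6142 and a signal of 68.5, lay in the neighbouring gene Mgat2, 1752 bp from the nearest Axn TSS. It ranked 5011 in replicate 2 and 10137 in replicate 4. At the Axn promoter the best candidate ranked 25936, with its summit 140 bp from the Axn TSS but 54 bp from that of the neighbour RpS28a. The Axn TSS 4.5 kb from the gene start had no candidate within 500 bp.

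The kinase gene sgg (chrX:2633952-2679553) had the strongest region of all 10 genes and the most complex set of promoters, with 11 annotated TSSs. The strongest region (chrX:2646162-2646621) had a signal of 369.9 and rank 255, with its summit 176 bp from an internal TSS, 12.7 kb downstream of the gene start. It ranked 429 in replicate 2 and 192 in replicate 4. A second promoter region (chrX:2658408-2658863), 130 bp from the TSS at 24.8 kb, had a signal of 135.5 and ranked 2094 in the pooled list, 2094 in replicate 2 and 1927 in replicate 4. Between these promoters lay 2 intronic regions. The stronger (chrX:2652699-2652958) had a signal of 231.3 and rank 728, with ranks of 621 and 603 in replicates 2 and 4. The weaker (chrX:2647348-2647803), 939 bp from a TSS, had a signal of 124.6 and rank 2439, with ranks of 3394 and 1672. Of the other 9 TSSs, 4 had no candidate within 500 bp and 5 had only candidates outside the IDR list, the strongest at each TSS ranking from 10635 to 21947. The IDR regions at sgg promoters were thus at 2 of its 11 TSSs.

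The beta-catenin gene arm (chrX:1891401-1900646) had 7 candidates and no IDR region, but its best candidate was near the end of the IDR list. That candidate (chrX:1898817-1899272) ranked 4107 with a signal of 89.9, 479 bp from an internal arm TSS, and ranked 4180 in replicate 2 and 5251 in replicate 4. An overlapping candidate 273 bp from a TSS ranked 6285. Both lay past the internal TSSs, inside the gene, and the TSS at the gene start had only a candidate at rank 20562.

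In the nucleus, pan (chr4:69326-114270) held 25 candidates, of which 1 was an IDR region. This region (chr4:67058-67513) had a signal of 103.0 and rank 3357, and ranked 3923 in replicate 2 and 2575 in replicate 4. Its summit lay 79 bp from the TSS of RpS3A, which encodes a ribosomal protein, and 2040 bp from the nearest pan TSS. Within pan itself the strongest candidates ranked 8563, 8718 and 8999, with signals from 53.0 to 54.8.

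The feedback inhibitor gene nkd (chr3L:19003741-19045449) had the most IDR regions, 5 among 26 candidates, in 5 separate places. Its place at the head of the 10 genes depends on the list: among the strongest 3860 candidates of replicate 2 alone fz had 6 and nkd 4, in those of replicate 4 alone nkd and sgg had 4 each, and among the strongest 1930 IDR regions nkd, sgg and fz had 2 each. More IDR regions were found at only 46 of the 13945 genes, and 95.6% of genes of at least 10 kb had fewer. These counts do not allow for the gene's length of 41.7 kb. Per 100 kb of window nkd had 10.5 IDR regions, and 3657 genes had more. The genes with the most IDR regions were CG1677 with 14, tara with 13 and CG14434 with 11. The strongest nkd region was at the promoter (chr3L:19045394-19045849), 173 bp from the only TSS, with a signal of 176.6 and rank 1255. The other 4 lay in introns 2.7, 5.1, 12.1 and 20.5 kb from the TSS, with signals of 138.6, 98.6, 136.4 and 165.2. No nkd region was as strong as the leading regions of sgg and fz, and the signals of all 5 nkd regions lay within a range from 98.6 to 176.6.

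**Figure D3:**
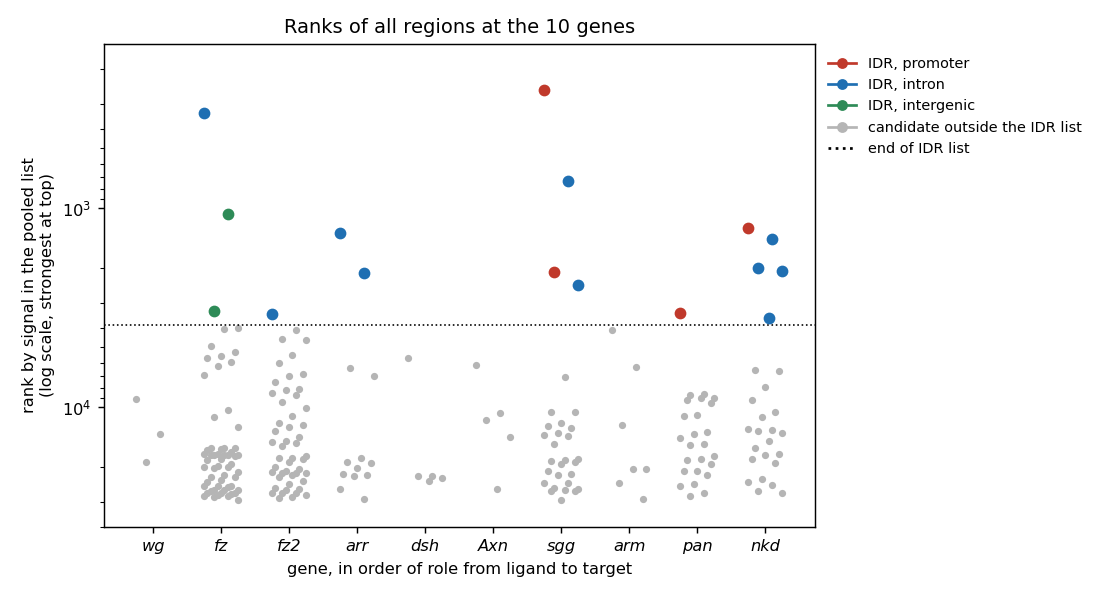
Rank by signal in the pooled list (log scale, strongest at the top) of all 223 regions at the 10 genes; coloured points are IDR regions by location, grey points other candidates, and the dotted line is rank 3860, the end of the IDR list. The leading points are those of sgg at rank 255 and fz at rank 335.

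The ranks of the nkd regions moved between the replicates in both directions. The nkd promoter region ranked 835 in replicate 2 and 3110 in replicate 4. The intronic region at 12.1 kb ranked 1496 and 4510, so it too was stronger by rank in replicate 2. The regions at 20.5, 5.1 and 2.7 kb ranked 2041 and 1037, 5840 and 2197, and 3202 and 1542, and were stronger by rank in replicate 4. The ranks in the libraries differed by more than 2-fold for 6 of the 16 regions at the Wingless genes (4 at nkd and 2 at sgg), against 22.4% of all IDR regions. Whether the genes differ in this was not tested.

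Of the 16 regions, 13 (81.2%) had their counterpart among the strongest 3860 candidates of both replicates, against 77.5% of all IDR regions, of which 88.8% were so in replicate 2 and 87.7% in replicate 4. The counterpart was the strongest candidate that overlapped the region by at least 1 bp. Spearman's rho between the ranks in the replicates was 0.693 over the 16 regions and 0.719 over 3854 IDR regions. These are descriptions, since regions share the libraries and 4 of the 16 (14.7% of all IDR regions) overlap another IDR region and share a counterpart with it. The 3 regions outside that limit in 1 replicate were the nkd regions at 12.1 and 5.1 kb and the region near pan. IDR regions were chosen by the authors with both replicates in view, so some likeness of ranks follows from the choice.

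**Figure D4:**
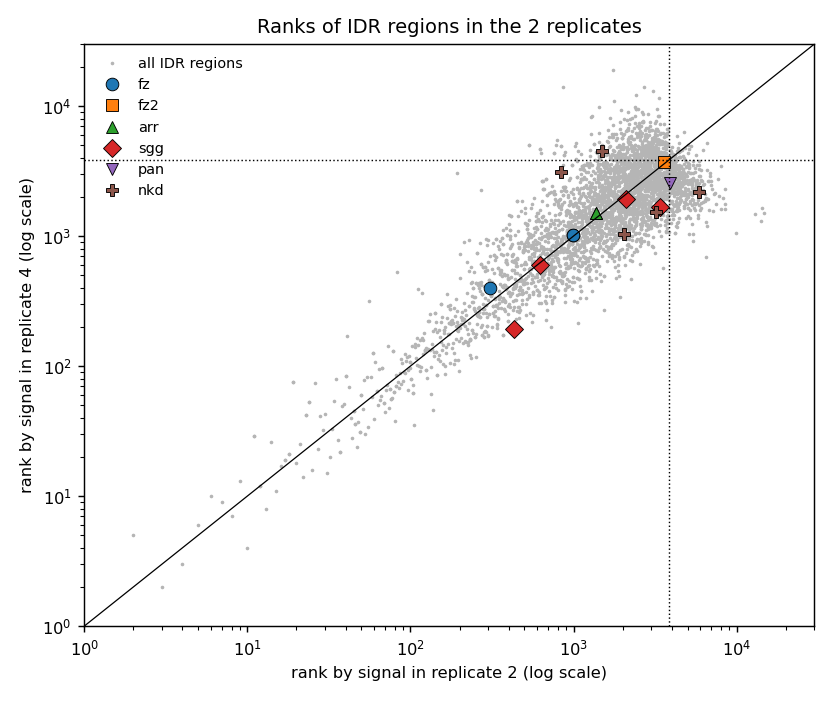
Rank of each IDR region in replicate 2 against its rank in replicate 4 (both log scale), for all 3854 regions with a counterpart in both (grey) and for those at the Wingless genes (coloured by gene); dotted lines mark rank 3860 and the solid line equal ranks. The fz and arr points lie near the solid line, and the nkd points lie on both sides of it.

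Beyond these 10 genes, a list of 38 further Wnt pathway genes, chosen with earlier results of these data known, was examined by the same rule. Of these, 20 (52.6%) had an IDR region, against 37.5% of all protein-coding genes. By length, 10 of 18 genes of at least 10 kb had one (55.6%, against 52.8%), and so did 10 of 20 shorter genes (50%, against 34.9%). All 7 genes grouped here under the turnover of armadillo (Apc, Apc2, CkIalpha, gish, dco, slmb and Tnks) had an IDR region, and 4 of them had one at their own promoter. The grouping was made here by name, and the role of each gene in that turnover was not examined. This group leaves out Axn and sgg, which act in that turnover but are counted among the 10 genes. There, sgg had 4 IDR regions and Axn had none. Among genes for ligand release and the cell surface, 4 of 5 had one (wls, dally, dlp and Notum, but not por). The counts were 4 of 7 for nuclear factors (gro, CtBP, nej and nmo), 2 of 6 for other Wnt ligands (Wnt4 and Wnt5), 1 of 4 for other receptors (fz4) and 2 of 9 for target genes used as readouts (H15 and Ubx). The shares of other ligands, other receptors and readout targets were below that over all genes, and those of the remaining groups above it. These groups are small, the differences between them were not tested, and a region near a gene may belong to its neighbour.

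The 6 strongest of these genes were gish, which encodes a casein kinase (rank 75, signal 643.6), dco, which encodes another (rank 375), the corepressor gene gro (rank 382), Apc2, a partner of Axin in the destruction complex (rank 496), the glypican gene dlp (rank 653) and nej, which encodes a histone acetyltransferase (rank 742). The gish and gro regions were at promoters of those genes, 151 and 109 bp from a TSS. The Apc2 region lay 17 bp from a TSS of the neighbour CG5510 and 5613 bp from that of Apc2. In all, the 38 genes held 40 IDR regions, of which 22 were at promoters of any gene (55.0%) and 8 contained an AP-1 site (20%, against 11.7% of all IDR regions), at 6 genes. Of the 38 genes, 9 had an IDR region at a promoter of their own, against 18.8% of all protein-coding genes. Near wg on the same arm lie Wnt4, Wnt6 and Wnt10, which also encode Wnt ligands. The Wnt4 promoter region ranked 1792, with ranks of 2112 in replicate 2 and 1461 in replicate 4. The best Wnt6 candidate, at its promoter, ranked 5075 and the best Wnt10 candidate ranked 16582, so neither gene had an IDR region.

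**Figure D5:**
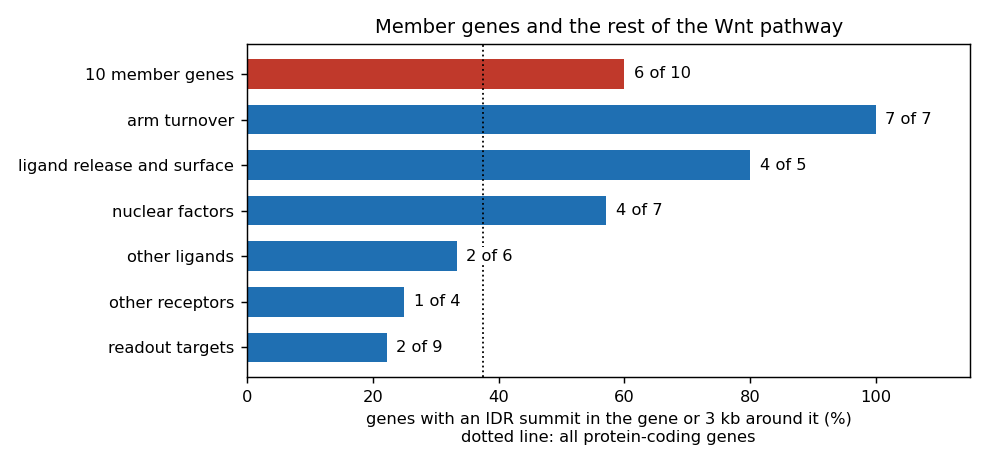
Percent of genes with an IDR summit in the gene or 3 kb around it, for the 10 genes and for 6 groups of other Wnt pathway genes, with counts beside the bars; the dotted line is the share over all protein-coding genes, 37.5%. The group for armadillo turnover, which leaves out Axn and sgg, stands at 7 of 7 and the readout targets at 2 of 9.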

How the data were processed

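ChIP-seq regions of kay-GFP were taken from 4 deposited dm6 lists in narrowPeak layout. Per the deposited descriptions, candidate lists (30000 regions each for replicate 2, replicate 4 and both pooled) were called against a control as input for IDR, and the IDR list derives from them. Neither the aligner nor the peak caller is given in the sources used here. The signal of each region is the authors' value, of unstated scaling between lists, so only ranks were set side by side. The deposited −log10 q value was the same (3.91) in all IDR regions and was not used. Lists in dm3 were not used here. Depth is unknown, and intervals cover counting error only.

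Gene models and TSSs came from Ensembl release 115 and bases from the Release 6 assembly, both in dm6 coordinates, here 1-based. Locations were assigned in the order promoter, 5' UTR, coding exon, 3' UTR, intron, intergenic. Motifs (7) were sought on both strands over whole regions, whose widths differ, and distances run from the site's centre to the summit. Every region of the 10 genes was assessed by the same rule. For each gene the strongest IDR regions at promoters and elsewhere, or the best candidate, are named, as are all regions with an AP-1 site, the 6 strongest other pathway genes and the 3 genes with the most IDR regions. Other genes and candidates named were chosen after their values were seen. The genes and lists were chosen with earlier results of these data known. No test was run: with 1 group there is no contrast over samples, and counts stand beside the same over all genes or regions. The code was tested on simulated data. The software was Python 3.11.15 with numpy 2.4.6, matplotlib 3.10.9 and scipy 1.17.1.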

Additional observations from a re-analysis of the deposited data

How the results depend on the processing

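The count of 16 IDR regions at the 10 genes was 12 in the gene bodies alone, 19 with 5 kb on either side, 14 with 1 region per cluster of overlapping regions, and 7 among the strongest 1930 regions. With the strongest 3860 candidates of a single replicate it was 16 for each, but fz had 6 in replicate 2 and 2 in replicate 4, fz2 1 and 3, and pan 0 and 1. Genes with an IDR region numbered 4 to 7 over these settings, and 5 to 6 when a replicate was left out. With 5 kb on either side dsh gained 1 region and arr had 4 in place of 2. The added 2 at arr were at promoters of other genes, over 3 kb from the only arr TSS. In the gene bodies alone fz had 1 in place of 3, nkd 4 in place of 5, and pan lost its region, so that nkd and sgg had 4 each. The promoter share ranged from 16.7 to 31.6% over all settings of gene, TSS and list, and from 18.8 to 25% when a replicate was left out. No AP-1 site was found with 5 kb on either side or with the strongest 3860 candidates of either replicate alone. The other settings take some of the same 16 regions, so their count of 0 was fixed in advance. The relaxed TGANTCA was in 1 of the 16. GAGAG was in 10 regions both with 1 region per cluster and among regions 456 bp wide, in place of 12. Candidates at the 10 genes numbered 188 to 234. With counterparts by nearest summit within 100 bp, 10 in place of 13 regions were among the strongest 3860 of both replicates, against 67.7% of all IDR regions. No paired analysis was possible because all samples form 1 group. The unknown depth limits what can be said of weak candidates, which the names of the lists call peaks and background, so a gene without an IDR region is not shown to lack binding.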
